A study of Mus musculus with 16 samples.

Results

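The cytosolic sector of the vacuolar proton pump (V-ATPase), called V1, was described through 10 genes taken from a fixed list of names and found by Ensembl identifier among the 25006 genes counted. All 10 passed the filter on low counts that left 12390 genes for testing. The list holds 1 or more genes for each of the 8 kinds of V1 subunit (A to H) and Atp6ap2, an accessory protein of the pump. Counts came from mRNA bound to tagged ribosomes (RiboTag) of substantia nigra dopaminergic neurons, with 1 library per mouse at postnatal day 45. The 8 control mice were DAT-Cre+/- and the 8 MCU-KO mice were DAT-Cre+/- MCU fl/fl, so that Cre recombinase, which is expressed under the dopamine transporter gene, was carried by both groups. Both groups also received, 30 days before collection, an AAV whose Cre-dependent construct encodes the ribosomal protein Rpl22l1 with a Myc-DDK tag. The conditional knockout targets Mcu, which encodes the pore of the mitochondrial Ca2+ uniporter. The sex of the mice was not given in the labels, and the control mice did not carry the floxed allele.

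The V-ATPase uses ATP to move protons into lysosomes, endosomes and synaptic vesicles. In dopaminergic neurons the proton gradient of the vesicle drives the uptake of dopamine by the vesicular monoamine transporter. The V1 sector sits in the cytosol and hydrolyses ATP in a head of alternating A and B subunits. Subunits D and F form the rotor that turns inside the head, E and G pair into stalks that hold the head still, and C and H join the stalks to the membrane sector V0, which carries the protons. V1 can come off V0 reversibly, and H is known to keep free V1 from hydrolysing ATP. Several subunits have more than 1 gene, and the products of Atp6v1b1, Atp6v1c2 and Atp6v1g3 are known from kidney, lung or other epithelia and that of Atp6v1e2 from testis.

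Library totals lay between 18999107 and 22016362 counts in control mice, and between 14129527 and 20582204 in MCU-KO mice, where 1 library, MCU-KO 8, was well below the others. Mcu itself ran from 120 to 828 normalized counts in control mice (median 401) and from 5.82 to 410 in MCU-KO mice (median 246), where a normalized count is a count divided by the DESeq2 size factor of its library. The genotypes overlapped for Mcu, and its log2 fold change of -1.19 did not pass the test (edgeR quasi-likelihood test, adjusted p = 1.00). Counts cover the whole gene, so transcripts that lack only the floxed part would still be counted. The study verified the knockout by other measures, qRT-PCR of Mcu in RiboTag mRNA and mitochondrial Ca2+ responses in these neurons. All 10 dopaminergic markers, among them Th and Slc6a3, were detected, with a summed level of 13661 to 17243 CPM (counts scaled to the size of the library) in control and 12082 to 19425 in MCU-KO mice. Markers of other cells were present too. Oligodendrocyte markers summed to between 2957 and 5895 CPM in control and between 3559 and 6947 in MCU-KO mice, and astrocyte markers to between 778 and 1378 and between 903 and 1557 CPM. Microglia markers summed to between 58.7 and 187 CPM in control and between 60.5 and 338 in MCU-KO mice. None of the 9 oligodendrocyte, 9 astrocyte and 9 microglia markers passed the test between genotypes, beside 0.178% of all 12390 genes. With so low a share, this is not read as equal content of these cells. The median log2 fold change was 0.12, 0.21 and 0.50 for these lists. Of the microglia markers, 8 were higher and 1 lower in MCU-KO mice. Because these are bulk libraries, fewer cells of a type and less RNA per cell cannot be told apart.

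Where a subunit has several genes, 1 of them carried nearly all counts, except for G. The V1 genes were chosen as the isoforms these neurons use. Their order against the other isoforms was therefore set by that choice, and it was not tested. Atp6v1b1, Atp6v1e2 and Atp6v1g3 had 0 counts in all 16 libraries, so that each could make up at most 0.0183 CPM over the control libraries (3 counts of their summed total, counting error only). Per kb of exon sequence, Atp6v1b2 was at least 42316-fold higher than Atp6v1b1 over the control libraries. By the same measure, Atp6v1e1 was at least 14995-fold higher than Atp6v1e2. Both G genes used here were at least 23342-fold higher than Atp6v1g3. Atp6v1c2 was not at 0, with 94 counts in 3 control libraries and 76 counts in 1 MCU-KO library. Per kb, Atp6v1c1 was 258-fold higher than Atp6v1c2 over the control libraries and 296-fold higher over the MCU-KO libraries. These 4 genes did not pass the filter on low counts and were not tested between genotypes.

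No V1 gene passed the test between genotypes. Of all 12390 genes, 22 (0.178%) passed the edgeR quasi-likelihood test with Benjamini-Hochberg adjustment at 0.05, 11 higher and 11 lower in MCU-KO mice, and 0 of the 10 V1 genes did. At an unadjusted p under 0.05, 547 genes (4.41%) passed, with 0 V1 genes among them. DESeq2 called 90 of 16171 genes (0.557%) and 0 V1 genes. Values of the genotypes did not overlap for 32 of the 12390 genes (0.258%) and for 0 V1 genes. The log2 fold changes (MCU-KO over control) ran from -0.15 for Atp6v1e1 to 0.20 for Atp6ap2, with 6 above 0 and 4 below. Their median was 0.01, beside 0.0025 over all genes tested.

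The counts behind these values were high, and the intervals were narrow. The 95% confidence interval of the log2 fold change lay within 0.5 of 0 for 9 of the 10 genes, all but Atp6ap2, and within 1 of 0 for all 10. Over all genes tested, 20.1% of intervals lay within 0.5 of 0. The median width of the interval was 0.40 for the V1 genes and 1.40 over all genes. A change of 2-fold in either direction therefore lay outside the interval of each V1 gene. Smaller changes were not excluded, and for Atp6v1e1 the interval reached from -0.34 to 0.05.

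**Figure D1:**
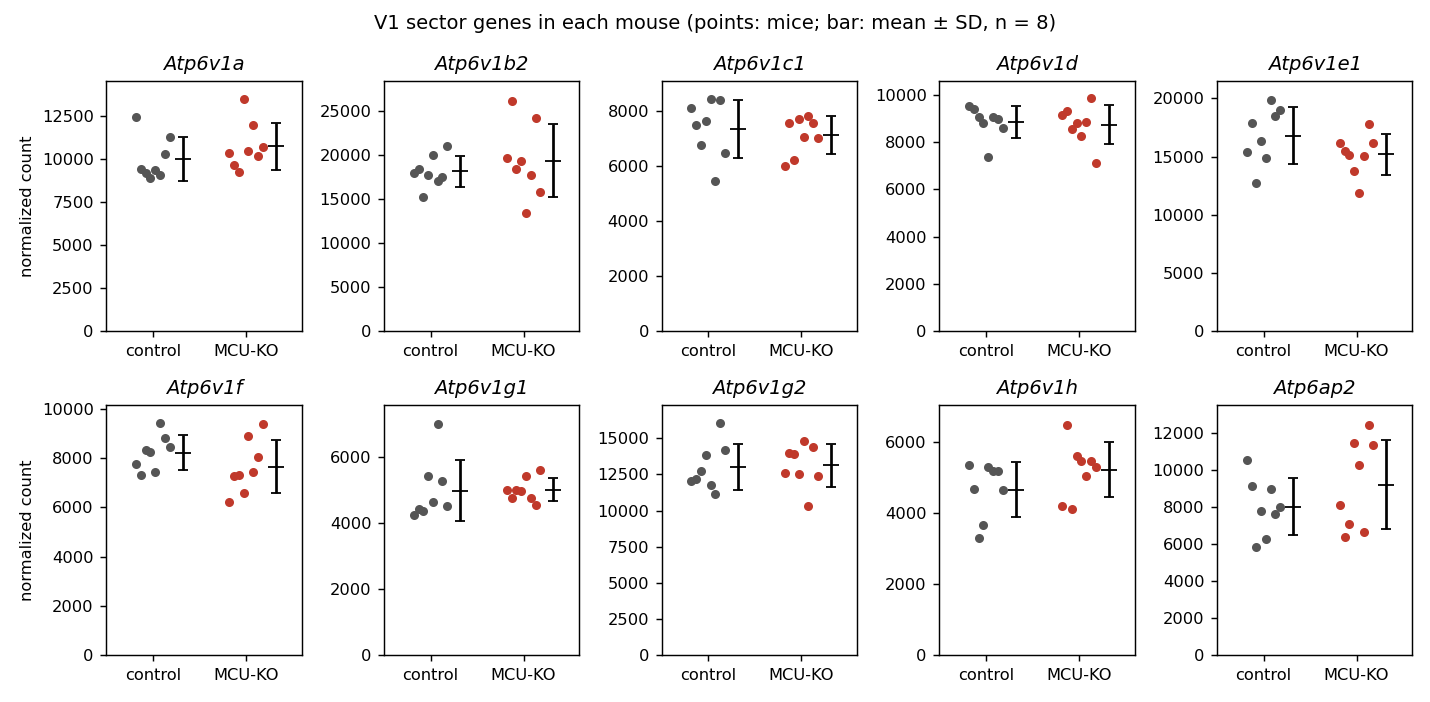
Normalized counts (vertical axis, from 0) of the 10 V1 sector genes in each mouse, in control (grey) and MCU-KO mice (red); each point is 1 mouse and bars are mean ± SD of 8 mice. The 2 genotypes overlap in every panel. MCU-KO mice are spread more widely than control mice for Atp6v1b2 (13436 to 26145 against 15246 to 21019). They are spread less widely for Atp6v1g1 (4541 to 5612 against 4235 to 7016).

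In the catalytic head, Atp6v1a encodes subunit A, which holds the catalytic ATP site. Its normalized count ran from 8887 through a median of 9372 to 12391.5 in control mice. In MCU-KO mice it ran from 9203 through 10366 to 13447. The groups overlapped, with 1 MCU-KO mouse (MCU-KO 4) above every control and 7 of 8 above the control median. On the log2 scale its fold change was 0.11, with a 95% confidence interval from -0.09 to 0.30. Atp6v1b2 encodes the brain form of subunit B, which completes the ATP sites. Its count ran from 15246 through 17833 to 21019 in control and from 13436 through 18870 to 26145 in MCU-KO mice. MCU-KO 2 and MCU-KO 7 lay above every control mouse and MCU-KO 5 below every one. The coefficient of variation was 9.80% in control and 21.5% in MCU-KO mice, a difference in spread that was not tested. The log2 fold change of Atp6v1b2 was 0.09 (-0.14 to 0.32).

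In the rotor, Atp6v1d, which encodes the central shaft, was the least variable V1 gene in control mice, with a coefficient of variation of 7.54%. Its count ran from 7361 through 9001 to 9511 in control and from 7107 through 8819 to 9837 in MCU-KO mice. Control 5 and MCU-KO 8, the shallowest library, were the low mice of their groups. The log2 fold change was -0.02 (-0.18 to 0.15). Atp6v1f encodes the small subunit F that binds the shaft. Its count ran from 7306 through 8306 to 9439 in control and from 6235 through 7387 to 9391 in MCU-KO mice. MCU-KO 1, MCU-KO 2 and MCU-KO 4 lay below every control mouse, while MCU-KO 8 came close to the highest control mouse. The log2 fold change of Atp6v1f was -0.11 (-0.30 to 0.08). Of its 50-base stretches, 11.2% also occur in a processed pseudogene (AC169506.3), so part of its reads could have been split or dropped in counting.

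In the stalks, Atp6v1e1 encodes the E subunit, which pairs with G. Its count ran from 12698 through 17080 to 19864.5 in control and from 11832 through 15315 to 17795 in MCU-KO mice. MCU-KO 7 alone lay above the control median and MCU-KO 5 lay below every control mouse. Its log2 fold change of -0.15 (-0.34 to 0.05) had the lowest p of the 10 genes, 0.142 before adjustment and 1.00 after (edgeR). Atp6v1g1 encodes the G subunit found in most tissues and Atp6v1g2 the G subunit known from neurons. Atp6v1g1 ran from 4235 through 4582 to 7016 normalized counts in control and from 4541 through 4988 to 5612 in MCU-KO mice. The range in MCU-KO mice lay inside that of control mice, whose top value was control 6. Atp6v1g2 ran from 11118 through 12483 to 16059.9 in control and from 10308 through 13259 to 14850 in MCU-KO mice. Control 6, the highest mouse for Atp6v1g1, was the lowest control mouse for Atp6v1g2, and MCU-KO 6 lay below every control mouse for Atp6v1g2. The log2 fold change was 0.01 for both, with intervals of -0.21 to 0.22 for Atp6v1g1 and -0.17 to 0.20 for Atp6v1g2.

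The first 183 coding bases of the G genes are shown here because these were the only paralogs of 1 subunit that were both abundant, and their sequences bear on whether reads can be told apart. They cover coding exons 1 and 2, at chr4:63544918-63544999 and chr4:63548585-63548685 on the plus strand for Atp6v1g1, and at chr17:35236764-35236845 and chr17:35237117-35237217 on the plus strand for Atp6v1g2 (GRCm38, GENCODE M21). Capitals mark the 48 positions at which they differ.
Atp6v1g1: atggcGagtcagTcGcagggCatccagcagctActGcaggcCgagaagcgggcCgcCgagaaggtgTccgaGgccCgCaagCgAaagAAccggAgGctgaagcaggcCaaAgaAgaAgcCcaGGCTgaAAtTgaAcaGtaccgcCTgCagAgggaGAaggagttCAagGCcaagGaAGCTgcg
Atp6v1g2: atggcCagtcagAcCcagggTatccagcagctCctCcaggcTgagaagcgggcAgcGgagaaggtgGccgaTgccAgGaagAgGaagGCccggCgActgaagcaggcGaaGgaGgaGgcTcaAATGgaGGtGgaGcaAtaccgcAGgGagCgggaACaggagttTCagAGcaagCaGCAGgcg
Both coding sequences have 354 bases, of which 229 (64.7%) are identical at the same position, and the longest identical run is 11 bases. No 50-base stretch of either G gene occurs in the other. Atp6v1g1 shares 19.2% of its 50-base stretches with the processed pseudogenes Gm12344 and Gm13453, so part of its reads could likewise have been dropped in counting. Atp6v1g2 shares 3.83% with Nfkbil1, an overlapping gene on the other strand, and whether counting used strand is not given in the sources used here.

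Among the subunits at the interface with V0, Atp6v1c1 encodes subunit C, which leaves the pump when V1 comes off. Its count ran from 5464 through 7577 to 8430 in control and from 6018 through 7319 to 7823 in MCU-KO mice, a range inside that of control mice. For Atp6v1c1 the log2 fold change was -0.04 (-0.24 to 0.16). Atp6v1h encodes subunit H. Its count ran from 3301 through 4923 to 5337 in control and from 4118 through 5383 to 6485 in MCU-KO mice. In 4 of 8 MCU-KO mice Atp6v1h was above every control mouse, and the other 4 lay within the control range. Its log2 fold change of 0.16 (-0.08 to 0.41) did not pass the test (edgeR adjusted p = 1.00). Rgs20, on the other strand, overlaps 1.30% of its exon bases.

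Atp6ap2, the (pro)renin receptor, is a membrane protein that binds the pump and is needed for its assembly. The gene is X-linked. Its count ran from 5834 through 7895 to 10569.9 in control and from 6393 through 9191 to 12458 in MCU-KO mice. MCU-KO 4, MCU-KO 7 and MCU-KO 8 lay above every control mouse, and the remaining 5 overlapped with control mice. It had the widest spread of the 10 genes, with a coefficient of variation of 19.3% in control and 26.3% in MCU-KO mice. Its log2 fold change was 0.20 (-0.11 to 0.51).

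Subunits that share a complex were not read at even levels. Per kb of exon union (all annotated exons of a gene merged), Atp6v1f was highest in control mice at 7740 ± 669 normalized counts per kb (SD, n = 8). Atp6v1g2 (5180 ± 640), Atp6v1g1 (4396 ± 818) and Atp6v1e1 (4088 ± 588) followed. Atp6v1b2 (3418 ± 335) and Atp6ap2 (3067 ± 591) came next, and then Atp6v1d (1921 ± 145), Atp6v1a (1651 ± 208) and Atp6v1c1 (1312 ± 187). Atp6v1h was lowest at 477 ± 79.6 normalized counts per kb. The order of group means was the same in MCU-KO mice. Atp6v1f was the highest and Atp6v1h the lowest of the 10 genes in all 16 mice by this length. The SD of the log2 level per kb over the 10 genes had a median of 1.19 within control mice. For the control means of 12383 genes the SD was 2.39. These are unlike measures, the first taken within mice and the second over group means. The 10 genes were also chosen as isoforms in use, so no conclusion on evenness is drawn from them.

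Within control mice, 42 of the 45 pairs of these genes differed in level per kb of exon union. The test was the exact sign-flip test over 256 patterns (two-sided, adjusted over 45 pairs, smallest possible p = 0.0078). Which pairs passed depended on the length used. By exon union, the 3 that did not pass were neighbours in the order. Atp6v1g2 was not separated from Atp6v1g1 (adjusted p = 0.0736, exact sign-flip test), nor Atp6v1g1 from Atp6v1e1 (adjusted p = 0.234), nor Atp6v1b2 from Atp6ap2 (adjusted p = 0.144). In MCU-KO mice 39 of 45 pairs passed. No such count over pairs of other genes is given here, so these counts are not read as particular to V1. All of the V1 genes were abundant beside other genes. Per kb, Atp6v1f stood above 98.9% of the genes tested, Atp6v1c1 above 92.0% and Atp6v1h above 80.8%.

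**Figure D2:**
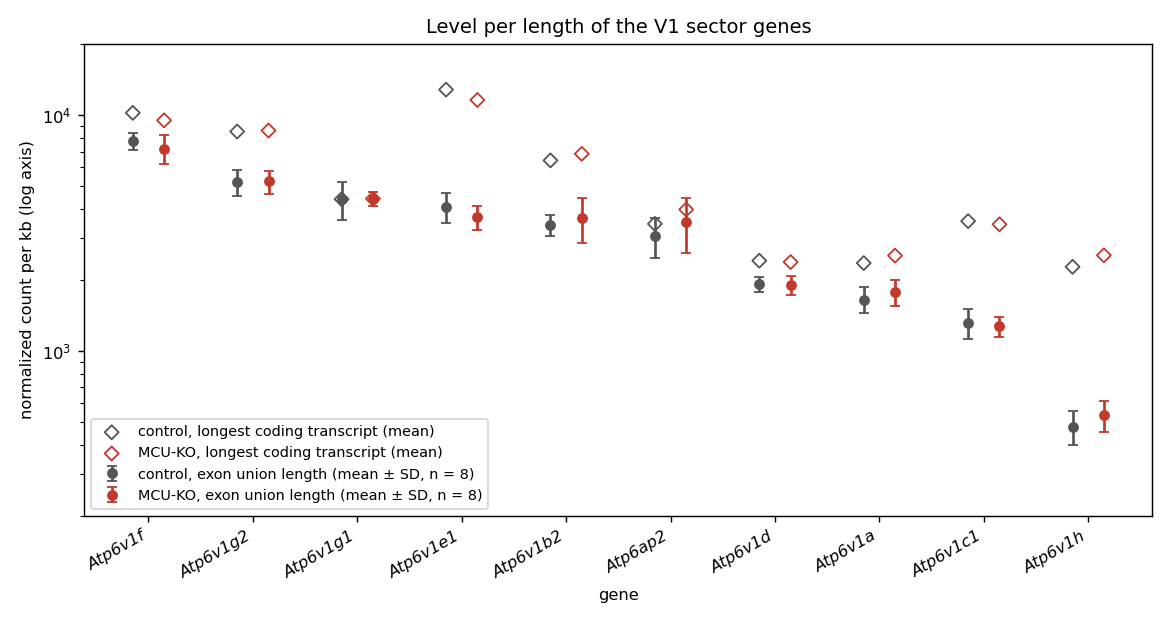
Level of the 10 genes in normalized counts per kb (vertical log axis), in control (grey) and MCU-KO mice (red), ordered by the control mean. Filled circles use the exon union (mean ± SD, n = 8) and open diamonds the longest coding transcript (mean). By exon union the control means fall from 7740 for Atp6v1f to 477 for Atp6v1h, and by coding transcript Atp6v1e1 is highest at 12806.

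The size of this unevenness rested on the length used. The ratio of the highest to the lowest gene within a control mouse had a median of 16.2 by exon union (12.9 to 23.2), and of 13.6 in MCU-KO mice (10.3 to 16.3). By the longest transcript the median in control mice was 10.6. By the longest coding transcript, a length added after the data were seen, it was 6.27 (4.52 to 7.09). By that length Atp6v1e1 was highest at 12806 normalized counts per kb, above Atp6v1f at 10208, and Atp6v1d, Atp6v1a and Atp6v1h lay together between 2271 and 2411. Atp6v1h has 9746 bases of merged exons but 2049 in its longest coding transcript, so that its level in control mice was 477 normalized counts per kb by the first and 2271 by the second. In control mice the mean of Atp6v1h was the lowest of the 10 genes under each of the 3 lengths. There the mean of Atp6v1f was among the highest 2 and that of Atp6v1a among the lowest 3 under each length. In MCU-KO mice Atp6v1h ranked 8 of 10 by the longest coding transcript and Atp6v1a 7 of 10 by the longest transcript.

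None of the 4 ratios of partner subunits within a mouse passed the test between genotypes. Atp6v1a to Atp6v1b2, which alternate in the head, had a log2 ratio per kb of -1.05 ± 0.18 in control and -1.02 ± 0.39 in MCU-KO mice (SD, n = 8 each). The difference was 0.03 (exact permutation test over 12870 splits, two-sided, adjusted p = 0.954 over 4 ratios). Atp6v1e1 to the sum of Atp6v1g1 and Atp6v1g2, which pair in the stalks, gave -1.24 ± 0.17 in control and -1.39 ± 0.23 in MCU-KO mice. That difference was -0.16 (exact permutation, adjusted p = 0.607). Atp6v1d to Atp6v1f in the rotor gave -2.01 ± 0.15 and -1.92 ± 0.31, with a difference of 0.09 (exact permutation, adjusted p = 0.926). By exon union these 3 ratios were below 0 in all 16 mice. By the longest coding transcript the ratio of Atp6v1e1 to the G genes was -0.019 ± 0.18 in control and -0.17 ± 0.24 in MCU-KO mice and above 0 in 6 of the 16 mice, while the other two stayed below 0 in all 16.

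G was the only subunit with more than 1 abundant gene. Atp6v1g1 to Atp6v1g2 had a log2 ratio per kb of -0.25 ± 0.31 in control and -0.24 ± 0.19 in MCU-KO mice, with a difference of 0.01 between genotypes (exact permutation, adjusted p = 0.954). Atp6v1g1 was the lower of the pair in 7 of 8 control and 6 of 8 MCU-KO mice. Neither group passed on its own after adjustment over the 2 groups (exact sign-flip test, adjusted p = 0.0703 and 0.0625). By the longest coding transcript the ratio in control mice was -0.96 and passed (exact sign-flip test, adjusted p = 0.0078), and by the longest transcript it was -0.66 (adjusted p = 0.0156). Without control 6, where the ratio was 0.48, the control mean was -0.35 and also passed (exact sign-flip test, adjusted p = 0.0312). Atp6v1g2 thus had the higher count per kb of the G genes on average under each length. By how much depended on the length and on that mouse. Reads of Atp6v1g1 dropped in counting would also lower its level, as 19.2% of its 50-base stretches are shared with pseudogenes. For Atp6v1g2, 3.83% are shared, with Nfkbil1. The effect of such shared stretches on the ratio was not tested, so the order of the G genes holds for these counts only.

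**Figure D3:**
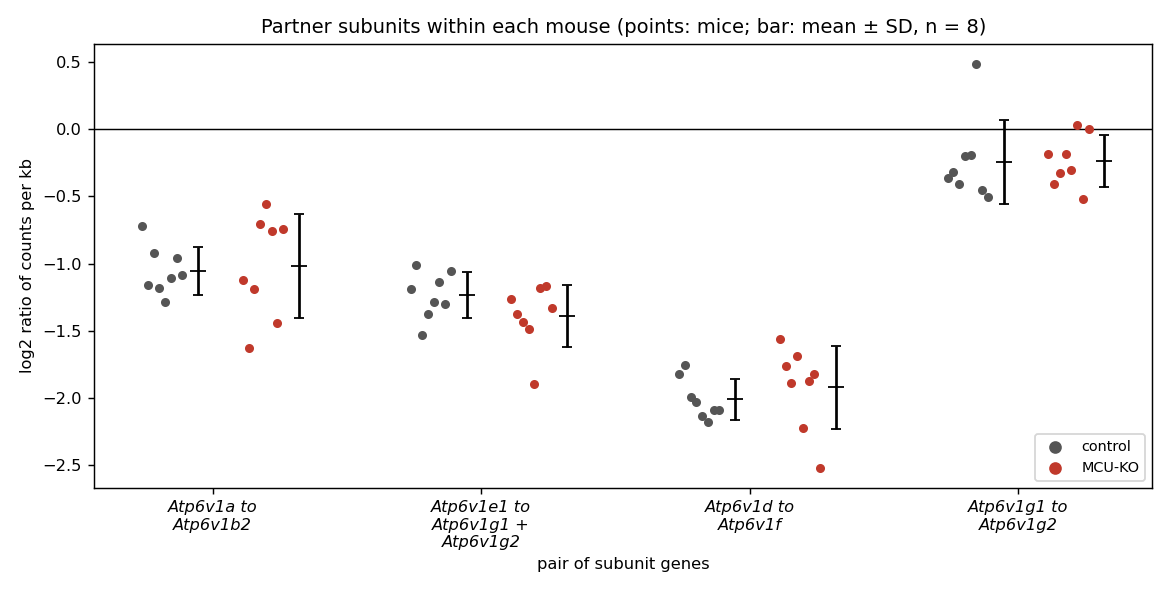
Log2 ratio of counts per kb, with 1 added to each count, between partner subunit genes within each mouse (vertical axis, 0 is an equal level). Control mice are grey and MCU-KO mice red, and bars are mean ± SD of 8 mice. Levels are per kb of exon union. By that length the first 3 ratios lie below 0 in all 16 mice, and the ratio of Atp6v1g1 to Atp6v1g2 lies nearest 0, with control 6 apart at 0.48. By the longest coding transcript, not plotted, the mean in control mice is -0.019 for Atp6v1e1 to the G genes and -0.96 for Atp6v1g1 to Atp6v1g2.

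From mouse to mouse, the V1 genes were only weakly correlated with each other. After the mean of each genotype was removed, Pearson's r of log2 CPM over the 16 libraries had a median of 0.10 over the 45 pairs of V1 genes, with 28 pairs above 0. Values ran from -0.48 for Atp6v1c1 with Atp6v1g1 to 0.53 for Atp6v1f with Atp6v1g1. Over all pairs of genes tested the median was -0.0025, and the 5th to 95th percentiles ran from -0.44 to 0.46. The genes most like the mean of the V1 genes over the 16 libraries were Ube2a (r = 0.83), Acadm (0.82) and Hibch (0.77). All of these correlations share libraries and depth, and they are given as a description.

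Among the other V-ATPase genes, 1 of the 9 tested V0 and accessory genes passed the test, beside 0.178% of all 12390 genes. That gene was lower in MCU-KO mice. Atp6v0c, which encodes the proton-binding ring subunit of V0, ran from 12327 through 15389 to 16282 normalized counts in control and from 4851 through 5761 to 7623 in MCU-KO mice. The genotypes did not overlap, and the log2 fold change was -1.31 (-1.52 to -1.11, edgeR adjusted p = 1.8e-08). The other 8 did not pass, among them Atp6v0d1, which links V1 to the ring (log2 fold change -0.15, interval -0.36 to 0.07). Atp6v0d2, its paralog known from other tissues, had 0 counts in all 16 libraries. Atp6v0c shares 10.8% of its 50-base stretches with 2 processed pseudogenes. The interval of each of the 10 V1 genes lay above that of Atp6v0c without touching it.

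**Figure D4:**
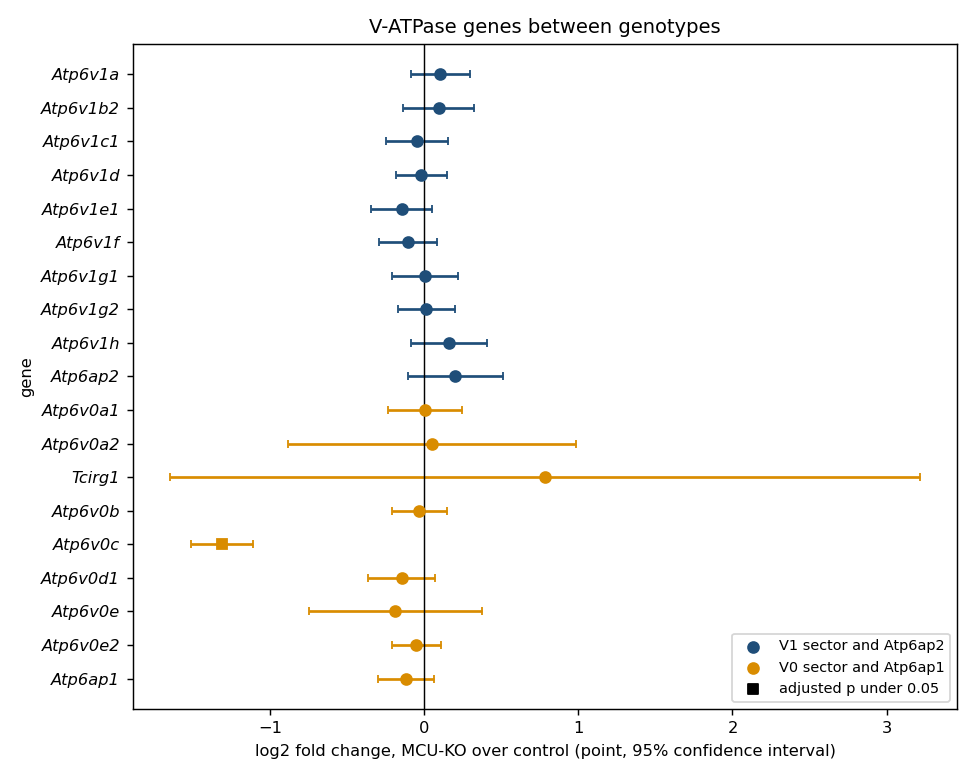
Log2 fold change between MCU-KO and control mice (horizontal axis) with its 95% confidence interval from edgeR for the 10 V1 sector genes (blue) and the 9 tested genes of the V0 sector list (orange). Every V1 interval spans 0, and Atp6v0c at -1.31 is the only gene that passed the test (square).

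None of the other lists of the pathway held a gene that passed. Of 12 genes for the assembly and regulation of the pump, 11 were tested and 0 passed, with 8 log2 fold changes above 0. Over all 12390 genes tested, 22 (0.178%) passed and 6241 log2 fold changes were above 0. Oxr1, whose TLDc domain family is known to bind V1, had a log2 fold change of 0.55 (0.15 to 0.95, edgeR adjusted p = 0.849, 0.00956 before adjustment). Ncoa7, of the same family, had 0.30 (-0.03 to 0.62), and Tldc2, a further member, had 0 counts in all libraries. Of 14 transporters and channels that use or balance the proton gradient, 13 were tested and 0 passed. The chloride-proton exchanger Clcn4 had a log2 fold change of -0.34 (-0.61 to -0.06, edgeR adjusted p = 0.973), and Slc18a2, the vesicular monoamine transporter, one of 0.20 (-0.06 to 0.45).

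Transcription factors of the TFEB family are known to raise lysosomal and V-ATPase genes by binding a TCACGTGA element. Of 4 family genes 3 were tested and 0 passed, with wide intervals at low counts. Mitf had a log2 fold change of 1.40 (-0.98 to 3.78) and Tfeb one of 0.50 (-1.33 to 2.33). RefSeq promoters, from 250 bases before to 50 bases after each gene start, were searched for TCACGTGA, which reads the same on both strands. Promoters of 6 of the 10 genes were listed, 7 in all, and 1 of them, that of Atp6v1a, held the element. Among all 32851 listed promoters, 320 (0.974%) held it. The stretch of the Atp6v1a promoter is shown for the position of the element (capitals), which ends 125 bases before the RefSeq gene start, at chr16:44139373-44139402 on the minus strand (GRCm38.p6). In GENCODE M21 the gene begins further upstream, at 44139705, and the element lies before the starts of 4 of its 6 transcripts and in an intron of the other 2.
Atp6v1a promoter: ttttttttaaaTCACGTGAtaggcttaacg
Atp6v1a, the gene with the element, had a log2 fold change of 0.11 (-0.09 to 0.30), which did not pass the edgeR test. A link between the element and this value was not tested.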

How the data were processed

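Polyadenylated mRNA bound to tagged ribosomes was sequenced. Per the labels, the libraries used here came from 16 mice, 8 of each genotype. The study counts 1 more MCU-KO mouse, which was not analysed here. The submitters' processing notes name Trim Galore, STAR, HTSeq and mm10. The methods of the study name cutadapt for trimming, an Ensembl annotation for counting and DESeq2 with a Wald test for comparing genotypes. The versions of these tools, the Ensembl release and the strand setting are not given in the sources used here. The authors deposited raw whole-number counts per Ensembl gene, with no normalization, and multi-mapped reads cannot be traced in them. Totals lay between 14129527 and 22016362 counts per library. Limits from 0 counts were set at 3 counts and cover counting error only.

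The V1 genes, the other gene lists and the tests were chosen with earlier results of these data known. GENCODE M21 (GRCm38, equal to mm10) supplied coordinates and, for 24942 identifiers, a symbol. Promoters came from RefSeq on GRCm38.p6. Of the pathway genes, Meak7 was found under its older symbol Tldc1.

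Genotypes were compared across all genes with edgeR 4.0.16 in R 4.3.3 (filterByExpr, TMM, quasi-likelihood test, Benjamini-Hochberg adjustment, threshold 0.05), with 1 library per mouse. Normalized counts were counts divided by size factors of DESeq2 1.42.0. Levels between genes were compared only per kb, of merged exons first and of the longest or longest coding transcript as alternatives. For ratios within mice, 1 was added to each count before log2. Ratios within mice were tested by exact sign-flip tests (256 patterns) and between genotypes by exact permutation tests (12870 splits). Alternatives were DESeq2, limma 3.58.1, other normalizations, other filters (none, or a minimum of 10 counts per library), covariates for Xist or for markers of non-neuronal cells, a replicate block, other transcript lengths, a pseudocount of 10, and leaving out each library. The longest coding transcript was added after the data were seen. Genes named beyond the V1 genes were, in each list, those that passed the test, the 2 with the smallest p and those at 0 counts in all libraries, and the 3 genes most correlated with the mean of the V1 genes. Atp6v1c2 and the targeted gene Mcu were named in addition. Tests were checked on simulated data. Python 3.11.15, numpy 2.4.6, pandas 2.3.3, scipy 1.17.1 and matplotlib 3.10.9 were used for the remaining steps.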

Additional observations from a re-analysis of the deposited data

Results flagged for a closer look

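In 30 sets of 8 mice (10 genes and 4 ratios in each genotype, and the library totals), 5 had a lowest or highest mouse far from the others by Dixon's criterion at 95%, where chance gives about 1.5. Atp6v1d was lowest in control 5, at 7361 normalized counts. Atp6v1g1 was highest in control 6, at 7016 normalized counts, and the log2 ratio of Atp6v1g1 to Atp6v1g2 per kb was highest in the same mouse, at 0.48. The log2 ratio of Atp6v1e1 to Atp6v1g1 plus Atp6v1g2 per kb was lowest in MCU-KO 5, at -1.90. The total was lowest in MCU-KO 8, at 14129527 counts. Without MCU-KO 8 the log2 fold change of Atp6v1d was 0.02 in place of -0.02, and without control 6 that of Atp6v1g1 was 0.10 in place of 0.01. In neither case did a V1 gene pass the edgeR test.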

How the results depend on the processing

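No V1 gene passed the threshold under any of the 25 alternatives to the genotype comparison, and the lowest adjusted p of any V1 gene was 0.724 (Atp6v1e1, edgeR with no filter on low counts). The count of all genes called was 22, between 18 and 24 when each library was left out in turn, 90 with DESeq2 and 14 with the replicate block. The direction of the log2 fold change held under every alternative for 7 of the 10 V1 genes. It turned for Atp6v1d (-0.051 to 0.021), Atp6v1g1 (-0.023 to 0.097) and Atp6v1g2 (-0.013 to 0.066) when single libraries were left out, all values near 0. For the same reason the genotype differences in partner ratios ran from -0.031 to 0.12 for Atp6v1a to Atp6v1b2 and from -0.030 to 0.11 for Atp6v1g1 to Atp6v1g2. The log2 ratio of Atp6v1g1 to Atp6v1g2 per kb was -0.66 in control and -0.65 in MCU-KO mice by the longest transcript and -0.96 and -0.95 by the longest coding transcript, and passed in both (exact sign-flip test). When each library was left out it ran from -0.35 to -0.21 in control mice, passing only without control 6, and from -0.28 to -0.20 in MCU-KO mice. The sign-flip count of 42 pairs ran from 40 to 43, but which pairs passed changed with the length. Atp6v1d was above Atp6v1a in 8 of 8 control mice by exon union (exact sign-flip test, adjusted p = 0.00925). By the longest and the longest coding transcript it was above in 5 of 8 (exact sign-flip test, adjusted p = 0.461 and 0.482). Atp6v1a was above Atp6v1h in 8 of 8 by exon union but in 4 of 8 by the longest coding transcript. The test measures spread between mice, not error in length.

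Mice of the 2 genotypes share numbers in the labels but are different animals, and deviations of same-numbered mice correlated by -0.06 to 0.03, so the numbers pair no samples. With the replicate block, 14 genes of 12390 and 0 V1 genes were called, and no partner ratio changed its call. The p-values measure the spread between these mice, whose sex and date of processing the labels do not give. The 95% intervals of the V1 genes had a median width of 0.40 on the log2 scale, so that small changes were not detectable at this depth and spread.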
